A study of Mus musculus with 12 samples.

Results

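Immediate early genes are transcribed within minutes of a stimulus, without new protein synthesis, and most encode transcription factors or regulators of transcription. Their messenger RNAs are short lived, and N6-methyladenosine (m6A) is a methyl mark on adenosine of RNA that reader proteins can use to change the stability or translation of a transcript. FOS and JUN proteins pair to form the AP-1 transcription factor, and in lung these genes are induced by injury, stretch and inflammatory signals. The members described here were Fos, Fosb, Jun, Junb, Jund, Atf3, Egr1, Egr2, Ier2 and Myc. A peak was taken as theirs where the deposited lists assigned it to one of these genes by name or where it had been called on the gene's Ensembl identifier. This gave 10 genes of the 17415 with a peak in either list, and they held 19 of 27292 m6A peaks of the OVA group and 21 of the 26102 of the PBS group.

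The lungs came from female BALB/c mice aged 6 to 8 weeks. The OVA group was sensitised with ovalbumin and aluminium hydroxide on days 0 and 7 and challenged with an ovalbumin aerosol daily on days 14 to 20, a model of acute allergic asthma, while the PBS group received phosphate-buffered saline at both steps. By the study's methods, lungs were collected after a methacholine provocation test under anaesthesia on day 21, a procedure that both groups share. Fragmented, ribosomal RNA-depleted RNA of 3 mice per group was sequenced before (input) and after immunoprecipitation (IP) with an antibody against m6A, which gave 12 libraries. The authors' peak caller compared IP with input, and each group has 1 list of peaks that pools its 3 mice. The lists give no value of a single mouse and no read count, so the depth behind a peak is unknown, no difference between the lists given here had a replicate check, and a peak that is missing from a list is not shown to be unmethylated. RNA of whole lung cannot tell fewer cells of a type from less RNA per cell. Of 12 markers of lung epithelium and vessels, 10 carried a peak in each list, including Sftpb, Scgb1a1, Foxj1 and Cdh5, while Sftpc and Scgb3a2 had none. Of 3 leukocyte markers, Ptprc and Itgam had a peak in both lists and Cd68 had none in either.

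All 10 immediate early genes carried m6A peaks in both the OVA and the PBS list, where 83.0% of the genes with a peak in either list had one in both. Each of the 19 OVA peaks overlapped an immediate early gene peak of the PBS list by at least 1 base of exonic sequence (100%, 95% Wilson interval 83.2 to 100), beside 80.6% of all OVA peaks that overlapped any PBS peak. Of the 21 PBS peaks, 19 overlapped one of the OVA list (90.5%, interval 71.1 to 97.3), beside 85.5% of all PBS peaks. These intervals cover counting error only. The shares over all peaks were not matched for p or length. Ranked by p within each list, with 100 as the strongest p, the immediate early gene peaks had a median percentile of 88.3 (OVA) and 82.5 (PBS). Over all peaks it was 50.0 in each list. The part of p in the shares was not tested. The PBS peaks with no OVA counterpart were a 5′ UTR peak of Egr1 and a 5′ UTR peak of Myc. By the caller's false discovery rate (FDR), all 19 OVA peaks and all 21 PBS peaks of these genes were under 0.05, as were 98.1% of all OVA peaks and 97.8% of all PBS peaks, so this threshold separated few peaks of any gene.

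Fold enrichment, the ratio of IP to input signal at a peak, was normalised within each list, so the values of both lists are set side by side with each peak's percentile among all peaks of its own list. The median over the immediate early gene peaks was 12.7 for OVA and 12.1 for PBS, beside 5.59 and 5.44 over all peaks. Over the highest peak of each gene alone, which is higher by construction, it was 21.6 and 18.1, beside 9.12 and 8.78 over the highest peak of every gene with a called peak. In the OVA list 15 of 19 lay above the median of the list, and in the PBS list 16 of 21. The range was wide in both lists, from 1.92 to 97.4 in the OVA list and from 1.88 to 79.0 in the PBS list. The peaks of these genes were also long, with a median of 718 exonic bases in the OVA list against 330 over all peaks, and 687 against 328 in the PBS list. Over the 19 peaks found in both lists the order of fold enrichment was nearly the same, with a Spearman correlation of 0.96 across peaks, beside 0.81 across the 21914 OVA peaks that overlapped a PBS peak called on the same gene. The 21914 peaks were not matched to the 19 for p or length. Peaks of 1 gene share its transcript, and peaks are not replicates.

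**Figure D1:**
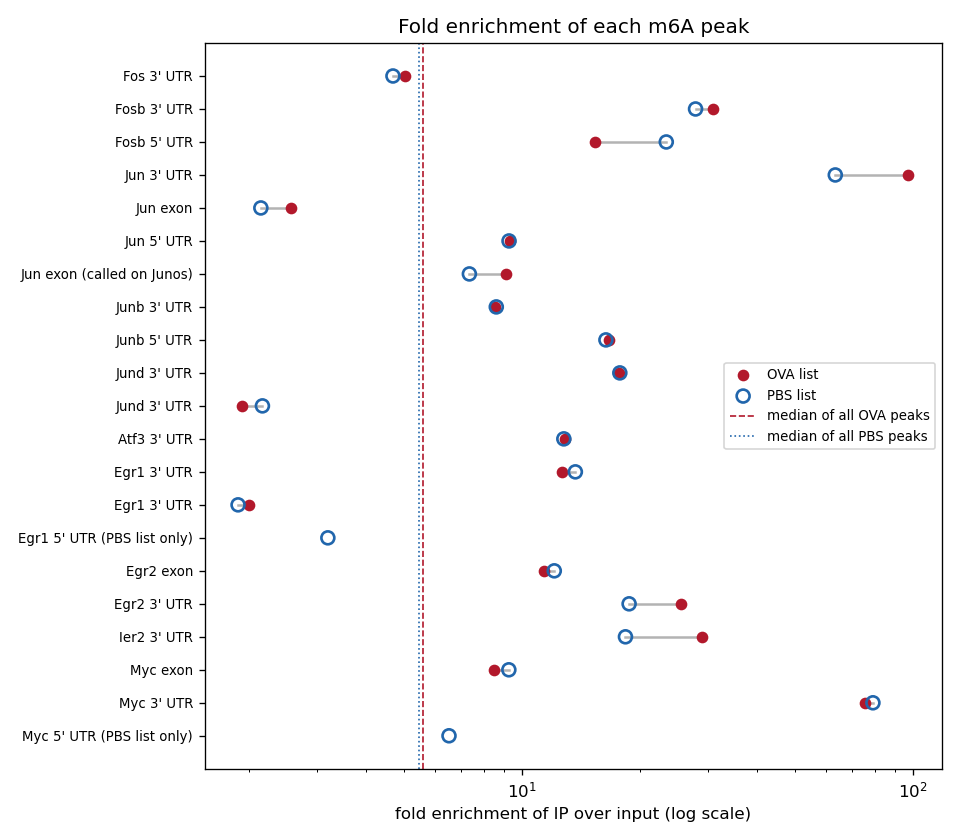
Fold enrichment of IP over input (horizontal log axis, no unit) of each m6A peak on the 10 immediate early genes, with filled red points for the OVA list, open blue circles for the PBS list and vertical lines at the median of all peaks of each list (5.59 and 5.44). The 3′ UTR peaks of Jun and Myc lie farthest right in both lists, and the 5′ UTR peaks of Egr1 and Myc have a PBS value only.

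Fos encodes the inducible FOS subunit of AP-1, which binds DNA only as a partner of a JUN protein. It had 1 peak in each list, in the 3′ UTR on chromosome 12 (GRCm38), from 85475697 to 85476678 (OVA) and from 85475992 to 85476678 (PBS). Its fold enrichment was 5.03 for OVA and 4.68 for PBS, at percentiles 46.3 and 44.3, where 100 is the highest value of a list. Among the 10 genes, Fos was the one whose highest peak was lowest in both lists, and the only one with no peak above the median of either list. The OVA peak had a block of 3 bases and a block of 863 bases, and 687 of its 866 bases were shared with the PBS peak. The peak was assigned to a transcript of Fos of the biotype processed transcript.

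Fosb, another FOS subunit, had a 3′ UTR peak and a 5′ UTR peak on chromosome 7 in both lists. The 3′ UTR peak ran from 19304487 to 19305026 (OVA) and from 19304457 to 19305055 (PBS), with a fold enrichment of 30.8 and 27.8 at percentiles 97.7 and 97.6. The 5′ UTR peak began at 19309512 in both lists and ended at 19309961 (OVA) and 19310021 (PBS). Its fold enrichment was 15.4 for OVA and 23.4 for PBS, at percentiles 85.3 and 95.7, a gap of over 10 percentile points. The p of both Fosb peaks also stood lower in the OVA list. The 3′ UTR peak was at percentile 40.7 by p for OVA and 68.0 for PBS, where 100 is the strongest p, and the 5′ UTR peak was at 39.4 and 68.7. A peak's p moves with the number of reads over it as well as with its enrichment, and the part of each was not tested.

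Jun encodes the JUN subunit of AP-1 and is a gene without introns on chromosome 4. It held the highest fold enrichment of the immediate early genes in the OVA list, 97.4, at a 3′ UTR peak from 95049659 to 95050494 whose start and end were identical in the PBS list. There its fold enrichment was 63.3, and the peak stood at percentile 99.9 for OVA and 99.8 for PBS. A 5′ UTR peak from 95051148 to 95052222, also identical in both lists, reached the 5′ end of the RefSeq gene and had a fold enrichment of 9.32 and 9.27. Between them lay a short exon peak with a fold enrichment of 2.57 over 151 bases for OVA and 2.15 over 92 bases for PBS. Peaks called on Jun covered 64.7% (OVA) and 62.8% (PBS) of the gene's span.

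A further peak assigned to Jun had been called on Junos, the opposite-strand gene at this locus. It had a block from 95051533 to 95051765, inside the 5′ UTR peak of Jun, and a block from 95052950 upstream of the Jun start that ended at 95053137 (OVA) and 95053107 (PBS). Its fold enrichment was 9.11 for OVA and 7.34 for PBS. The libraries were made with dUTP in the cDNA strand that was later removed, so their reads carry strand, but whether the peak calling used it is not given in the sources used here. The lists alone therefore do not tell whether the same reads count for Jun and Junos in the shared block.

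Junb, whose product is a JUN family subunit, had a 3′ UTR and a 5′ UTR peak on chromosome 8 with nearly equal values in both lists. The 3′ UTR peak, from 84976998 (OVA) or 84976968 (PBS) to 84977681, had a fold enrichment of 8.53 and 8.60. The 5′ UTR peak, from 84977917 to 84978451 in both lists, had a fold enrichment of 16.7 and 16.4. Junb was the gene other than Fosb and Jun with a 5′ UTR peak in both lists, and its 5′ UTR peak had a higher fold enrichment than its 3′ UTR peak, the reverse of the order in Fosb and Jun.

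Jund encodes the JUN family subunit that is present in many resting cells. It had a long 3′ UTR peak on chromosome 8 that ended at 70700408 in both lists and began at 70699484 (OVA) and 70699454 (PBS), with a fold enrichment of 17.7 and 17.8. A short peak at the very 3′ end of the gene, up to 70700616, had a fold enrichment of 1.92 over 62 bases for OVA and 2.17 over 121 bases for PBS. The long peak lay over Gm11175, an antisense gene with peaks of its own in both lists. A peak called on Gm11175 from 70699537 to 70700080 had a fold enrichment of 11.6 for OVA and 9.55 for PBS, and the same limit on strand holds for this peak and that of Jund.

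Atf3 encodes a stress-induced repressor of the ATF/CREB family that can pair with JUN proteins. It had 1 peak in each list, in the 3′ UTR on chromosome 1, with a fold enrichment of 12.9 for OVA and 12.8 for PBS. The OVA peak spanned 191170445 to 191172426 in a block of 1235 bases and a block of 53 bases, and the PBS peak 191170594 to 191171552 in a single block of 959 bases, all of which the OVA peak contained. By p the Atf3 peak was at percentile 98.7 for OVA and 82.5 for PBS, while its fold enrichment stood at percentiles 79.6 and 81.2. The OVA list thus had a longer peak of Atf3 with a stronger p and a similar rank of enrichment. Both lists assigned the peak to the neighbouring gene Fam71a.

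Egr1 encodes a zinc finger transcription factor of the early growth response family. Its main peak, annotated to the 3′ UTR, lay on chromosome 18, from 34862652 to 34864326 (OVA) and from 34862682 to 34864297 (PBS), with a fold enrichment of 12.7 and 13.7. A short 3′ UTR peak farther downstream had a fold enrichment of 2.01 over 62 bases for OVA and 1.88 over 151 bases for PBS, and only 32 bases were common to both. The PBS list also had a peak at the start of Egr1, in the 5′ UTR from 34861197 to 34861377, with a fold enrichment of 3.19 at percentile 29.4 and a p at percentile 43.9. No OVA peak overlapped it.

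Egr2, a relative of Egr1 known for its part in myelination and in restraint of T cell responses, had an exon peak and a 3′ UTR peak on chromosome 10 in both lists. The exon peak, from 67539803 to 67540638 (OVA) and from 67539893 to 67540579 (PBS), had a fold enrichment of 11.4 and 12.1. The 3′ UTR peak ended at 67541622 in both lists and had a fold enrichment of 25.5 for OVA and 18.8 for PBS, at percentiles 95.8 and 91.9. Both Egr2 peaks were longer and had a stronger p within the OVA list. The exon peak stood at percentile 93.8 by p for OVA and 67.4 for PBS, and the 3′ UTR peak at 99.4 and 88.1.

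Ier2, which encodes a small nuclear regulator induced by growth factors, had 1 peak in each list that took up most of this intronless gene on chromosome 8. It ran from 84661420 to 84662466 (OVA) and from 84661390 to 84662496 (PBS), 68.8% and 72.7% of the gene's span. Its fold enrichment was 28.8 for OVA and 18.4 for PBS, at percentiles 97.1 and 91.5.

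Myc encodes a transcription factor that pairs with MAX and drives growth and proliferation. Its 3′ UTR peak on chromosome 15, from 61989597 to 61990314 (OVA) or 61990284 (PBS), had a fold enrichment of 75.5 and 79.0, at percentiles 99.8 and 99.9. This was the highest value of the immediate early genes in the PBS list and the highest after Jun in the OVA list. An exon peak, from 61987814 to 61988143 (OVA) and from 61987873 to 61988203 (PBS), had a fold enrichment of 8.48 and 9.26. By p both Myc peaks stood higher within the OVA list, at percentiles 82.6 and 66.4 for the 3′ UTR peak and 82.9 and 72.3 for the exon peak. The PBS list alone had a 5′ UTR peak of Myc, from 61985748 to 61985869, with a fold enrichment of 6.51 at percentile 56.3 and a p at percentile 28.7.

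The Egr1 and Myc peaks found in the PBS list alone were both in a 5′ UTR and both in the weaker 50% of that list by p. Of all PBS peaks in a 5′ UTR, 19.6% had no OVA counterpart, and of all PBS peaks in the weaker 50% by p, 28.2% had none. Of the immediate early gene peaks, 4 of the PBS list were in that weaker 50%, and 2 of these had no OVA counterpart. A count of 4 peaks allows no comparison with these shares.

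**Figure D2:**
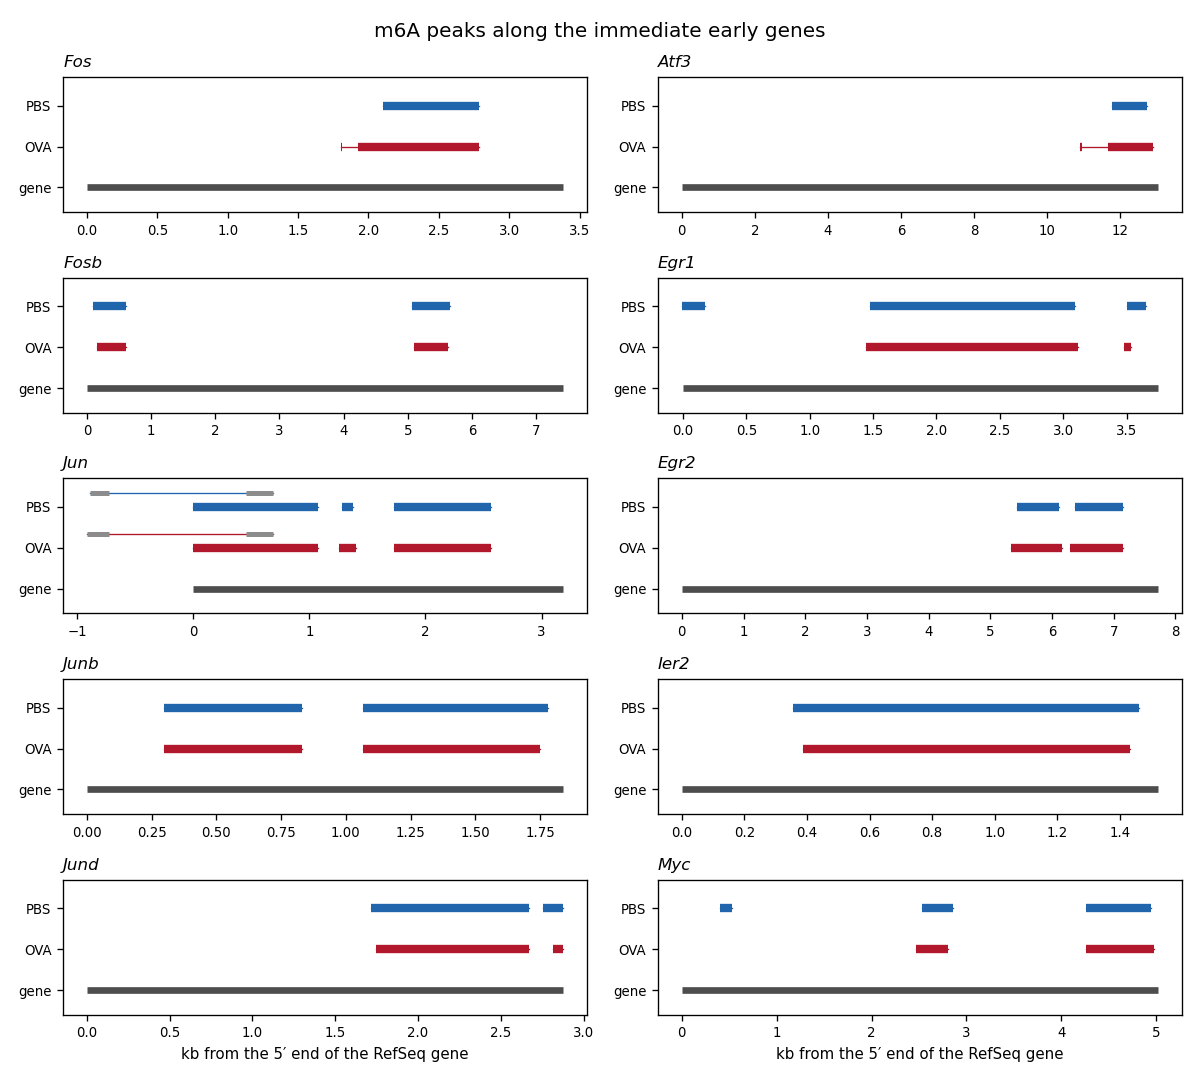
Position of the m6A peaks on each immediate early gene, in kb from the 5′ end of the RefSeq gene, with the gene's span in dark grey, peaks of the OVA list in red and of the PBS list in blue (thick bars are exonic blocks, thin lines join blocks of 1 peak, and light grey blocks at Jun mark the peak called on Junos). The peaks of both lists overlap on every gene, except for the 5′ peaks of Egr1 and Myc in the PBS list alone.

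By the authors' annotation, 12 of the 19 OVA peaks of the immediate early genes were in a 3′ UTR (63.2%, 95% Wilson interval 41.0 to 80.9), 3 in a 5′ UTR and 4 in another exon. In the PBS list 12 of 21 were in a 3′ UTR (57.1%, interval 36.5 to 75.5), 5 in a 5′ UTR and 4 in another exon. Each peak carries 1 region label, and a long peak can reach beyond the region it is labelled with. The Ier2 peak, labelled 3′ UTR, took up 68.8% (OVA) and 72.7% (PBS) of the gene's span. The labels therefore do not place the mark within a peak. Over all peaks the 3′ UTR share was 52.7% for OVA and 52.7% for PBS, inside both intervals. The 5′ UTR share over all peaks was 11.6% for OVA and 11.4% for PBS, beside 15.8% and 23.8% of the immediate early gene peaks. For other exons it was 35.7% and 35.9%, beside 21.1% and 19.0%. These shares over all peaks also lay inside the Wilson intervals of the immediate early gene peaks. Every gene of the 10 had a peak labelled 3′ UTR called on it in both lists, as did 73.1% of the 12283 genes with any peak called on them in both. In each list 7 of the 12 3′ UTR peaks were assigned to a protein-coding transcript, beside 41.2% (OVA) and 41.4% (PBS) of all 3′ UTR peaks. The 7 include the Atf3 peak, whose assigned transcript is of Fam71a and not of Atf3, and 12 peaks are too few for a comparison of these shares. In each list 6 peaks of these genes were assigned to a gene other than the one they were called on, 31.6% (interval 15.4 to 54.0) of the OVA peaks and 28.6% (interval 13.8 to 50.0) of the PBS peaks, beside 22.5% and 22.8% of all peaks. They were the 3′ UTR peaks of Jun (assigned to Gm12703), Fosb (Gm26802), Junb (AC163703), Jund (Gm11175) and Atf3 (Fam71a), and the Junos peak assigned to Jun. A search by assigned gene name alone would thus have found no peak of Atf3 and would have left out the highest peaks of Jun, Fosb and Jund.

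Across the 19 shared peaks of the immediate early genes, 8 had a higher percentile of fold enrichment among the OVA peaks and 11 among the PBS peaks, beside 12310 and 9604 of the 21914 overlapping peaks of all genes. By the fold enrichment as listed, 11 of the 19 were higher for OVA and 8 for PBS, beside 13145 and 8670 of all overlapping peaks. The counts of the 19 thus turned with the scale, and no direction is read from them. By p, 8 of the 19 differed by over 10 percentile points, beside 31.9% of all, and a peak near the top of a list has less room to differ in percentile. Those 8 were the peaks of Atf3, Egr2 and Myc, which stood higher in the OVA list, and both peaks of Fosb and the short peak of Jund, which stood higher in the PBS list. Of the 19 shared peaks, 3 had identical ends in both lists, beside 12.7% of all.

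Of 74 other genes of the AP-1, EGR and MYC networks, rapid responses and the kinases and factors upstream of them, 62 had an assigned peak in either list, and 59 of these had one in both (95.2%, 95% Wilson interval 86.7 to 98.3), beside 80.6% of the 15332 genes with an assigned peak in either list. There were 2 with an assigned peak in the OVA list alone, 1 in the PBS list alone and 12 with none. Of those with no assigned peak, Jdp2, Atf2, Dusp2, Mxi1, Elk1 and Mapk9 had peaks called on them in both lists. Mlx was the reverse, with assigned peaks in both lists and none called on it. The counts by group that follow are of assigned peaks alone. Among 17 relatives of AP-1 and ATF factors 12 had such peaks in both lists, among them Atf1 with a highest fold enrichment of 21.7 for OVA and 16.7 for PBS. Of 4 EGR relatives and co-repressors 3 had peaks in both lists, with the co-repressor Nab2 at 13.9 and 14.8 and Egr3 at 12.3 in an exon peak (OVA) and 8.39 in another, 3′ UTR peak (PBS). Other rapid response genes had peaks in both lists for 23 of 24, with Ier5l at 40.6 and 36.7 and Ier5 at 31.9 and 26.0. In the MYC network it was 9 of 12, with the MAX partner Mga at 28.9 and 29.0 and Mycl at 20.3 and 16.3. Of 17 upstream regulators 12 had peaks in both lists, with the kinase gene Rps6ka5 at 16.1 and 37.9 and Creb1 at 26.8 and 34.3. The highest peaks of Jun and Myc were above each of these values in both lists.

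The genes with an assigned peak in 1 list were Batf (OVA, fold enrichment 4.83), Mxd3 (OVA, 4.62) and Atf6 (PBS, 2.07). Batf and Atf6 had peaks called on them in both lists when the called gene was read instead, and Mxd3 had a peak in the OVA list alone by either reading.

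Promoter windows of RefSeq (GRCm38.p6, 250 bases before to 50 after an annotated start) were held for 7 of the 10 genes, in 11 windows. The peaks of Jun reached into its window by 50 bases in both lists, and the PBS peak of Fosb by 26 bases, so the sequence at the 5′ edge of these peaks is shown, on the strand of the gene, with the bases inside the peak in capitals. The Jun stretch is chr4:95052208-95052237, minus strand, and its edge was the same in both lists. The Fosb stretch is chr7:19310007-19310036, minus strand.
Jun: tggtagcagataagtGTTGAGCTCAGGCTG
Fosb: actggagcggctacgCCGGGGACACGCGGA

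The windows were searched on both strands for letters that factors of immediate early transcription are known to bind, namely the serum response element, TGACGTCA of CREB and ATF factors, TGACTCA of AP-1 and GCGTGGGCG of EGR factors. The serum response element was found in Egr2 alone of the 7 genes, beside 1.81% of the 27025 genes in the table. TGACGTCA, TGACTCA and GCGTGGGCG were in 0 of the 7, beside 2.03%, 5.95% and 0.707% of genes. The search took these motifs exactly. The serum response element was instead a pattern that different runs of letters can match, as the Egr2 matches below show, so its share is not like theirs. A match is a run of letters and not a measured site, and these windows leave out sequence farther upstream. The Egr2 matches, shown in capitals because they were the matches found among these genes, lay within chr10:67537484-67537513 and chr10:67537787-67537816, plus strand. Egr2 has 5 windows at alternative starts, and these stretches begin 3015 and 3318 bases downstream of the 5′ end of the RefSeq gene span, inside that span.
Egr2, upstream match: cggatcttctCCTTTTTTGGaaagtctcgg
Egr2, downstream match: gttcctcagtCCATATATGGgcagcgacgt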

How the data were processed

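Each group had 3 mice, and input and IP libraries were made from the lung RNA of each. The authors aligned reads with HISAT2 to the Ensembl mouse genome (GRCm38), used exomePeak for peak calling and ChIPseeker for annotation. The deposited lists give each peak's fold enrichment, a ratio of IP to input, and the deposited log10 p and log10 FDR, used here as a score. How the caller combined the 3 mice is not given in the sources used here. Peaks were read with Python 3.11.15 and pandas 2.3.3, and intervals came from scipy 1.17.1. Peaks were called shared at an overlap of at least 1 base of exonic blocks. Percentiles were taken within each list. The overlap code was tested on simulated data. Called identifiers were matched to symbols for 27259 of 27292 OVA peaks and 26070 of 26102 PBS peaks. All peaks of the 10 genes were named. Of the wider list, the 2 genes per group with the highest fold enrichment at an FDR under 0.05 and every gene with a peak in 1 list were named. A gene that this rule takes is not reported here. The members and lists were chosen with earlier results of these data known. No test between groups was made, since each group has 1 list. The study's own comparisons of methylation and expression between the groups were not used here.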

Additional observations from a re-analysis of the deposited data

How the results depend on the processing

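No paired analysis was possible because the lists hold no values of single mice, and leaving out replicates could not be run, since each list pools its 3 mice. The number of immediate early gene peaks was 14 (OVA) and 16 (PBS) by assigned gene name alone, and 18 and 20 by called gene alone or at a fold enrichment of at least 2. The share of peaks found in the other list kept within its interval for an overlap covering 50% or more of each of the 2 peaks (94.7% of OVA and 85.7% of PBS peaks), genomic spans, a counterpart of any gene, peaks with FDR below 0.05, and peaks enriched 2-fold or more. With identical start and end it was 15.8% of OVA and 14.3% of PBS peaks, since most peaks differed between the lists in at least 1 edge. Some edges lay far apart, as for Atf3 with peak ends at 191172426 (OVA) and 191171552 (PBS). The median fold enrichment over the highest peak of each gene was 21.6 (OVA) and 18.1 (PBS). Both values lay inside the 95% intervals of the main medians, 8.48 to 25.5 and 6.51 to 18.4, which come from the order of the peak values. Such intervals treat the peaks of 1 gene as independent. The highest peaks are among the same peaks and are higher by construction, so the intervals do not test this choice. Only peaks assigned to a protein-coding transcript left 7 of 12 3′ UTR peaks in the OVA list and 7 of 12 in the PBS list, by the construction of that filter. By called gene, 66 of the 74 wider genes had peaks in both lists. The unknown depth limits every statement on a peak found in 1 list: a missing peak may be one that was not detectable.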
